A study of Mus musculus with 8 samples.

Results

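The heat-shock chaperones are described here through 10 genes of mouse embryonic fibroblasts: Hspa1a, Hspa1b, Dnajb1, Hsp90aa1, Hsph1, Hspa8, Hspb1, Hspe1, Hspd1 and Hsf1. A probe set, a group of short probes read as 1 value, was counted as a member where the probe annotation named 1 of these symbols and no other gene. This gave 20 of the 22626 probe sets that are not array controls. They represent 9 of the 10 genes, since no probe set was named for Hsf1 alone. The arrays came from cells of day 11 embryos that had been passaged through crisis, when primary cells cease to divide before a lasting line emerges. Cultures were wild type (WT) or Med23-/- knockout (KO). The KO cells lack MED23, a subunit of the Mediator coactivator that activators use to recruit RNA polymerase. Both genotypes were kept for 16 h in 0.5% fetal bovine serum. RNA was then taken from starved cells or from cells given 20% serum for 30 min, with 2 arrays in each of the 4 groups and 8 in all. The study asked which genes respond differently to serum without MED23. It is not stated that replicate samples came from separate cultures, and p-values then measure only the spread between these samples. The labels also do not say how many cell lines or embryos stand behind each genotype, so loss of MED23 and other differences between the WT and KO cultures cannot be told apart.

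Heat-shock chaperones bind unfolded proteins and help them fold, and many are made in larger amounts when proteins are damaged by heat or other stress. HSF1 is the transcription factor that switches them on, by binding heat shock elements, which are inverted repeats of the letters GAA, in their promoters. HSP70 proteins (Hspa1a and Hspa1b, the stress-inducible pair, and Hspa8, the constitutive HSC70) work with J-domain partners such as Dnajb1, which stimulate their ATPase, and with Hsph1, an HSP110 protein that helps HSP70 exchange its nucleotide. Hsp90aa1 encodes the inducible form of cytosolic HSP90, which matures kinases and steroid receptors, and Hspb1 encodes a small heat-shock protein that holds unfolded proteins without using ATP. Hspe1 and Hspd1 encode HSP10 and HSP60, the parts of the mitochondrial chaperonin, and are transcribed in opposite directions from a shared promoter.

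Upstream sequences were taken from RefSeq (GRCm38.p6), which gave 10 windows for 7 of the 10 genes, with none for Hspa8, Hsp90aa1 and Hsf1. The windows below are shown because they belong to the member with the strongest serum response in both genotypes (Dnajb1), to one whose response differed between genotypes (Hspa1a) and to one with less signal in KO cells (Hspb1). The first 3 are the 250 bases before the annotated start, 5′ to 3′ on the gene's own strand, and capitals mark each 2-unit heat shock element, written as GAANNTTC or TTCNNGAA and searched on both strands. Hspa1a lies at chr17:34972157-34972406 on the minus strand, Dnajb1 at chr8:83607925-83608174 on the plus strand, and Hspb1 at chr5:135887669-135887918 on the plus strand. For Hspe1 (chr1:55088053-55088082, plus strand) and Hsph1 (chr5:149636351-149636380, minus strand) only the 30 bases around the elements are given.
Hspa1a: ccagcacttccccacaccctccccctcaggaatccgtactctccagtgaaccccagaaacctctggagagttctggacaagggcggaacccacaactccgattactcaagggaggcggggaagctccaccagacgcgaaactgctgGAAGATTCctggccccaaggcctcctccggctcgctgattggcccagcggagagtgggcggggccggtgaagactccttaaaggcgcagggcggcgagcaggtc
Dnajb1: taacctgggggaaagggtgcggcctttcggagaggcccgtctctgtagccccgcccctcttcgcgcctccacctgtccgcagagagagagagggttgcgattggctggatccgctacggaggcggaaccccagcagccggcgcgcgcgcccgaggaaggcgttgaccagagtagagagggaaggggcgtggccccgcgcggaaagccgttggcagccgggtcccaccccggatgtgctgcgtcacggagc
Hspb1: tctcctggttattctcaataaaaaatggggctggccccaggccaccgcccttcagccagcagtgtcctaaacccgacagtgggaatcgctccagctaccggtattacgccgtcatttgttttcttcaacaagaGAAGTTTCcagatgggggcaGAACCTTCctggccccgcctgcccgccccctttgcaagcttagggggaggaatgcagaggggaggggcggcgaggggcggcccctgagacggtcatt
Hspe1: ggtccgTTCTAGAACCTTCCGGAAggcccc
Hsph1: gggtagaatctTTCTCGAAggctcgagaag

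A 2-unit element was present in 12.8% of the 32851 promoters searched over the same length. Hspa1a and Hspa1b each held 1, GAAGATTC, which starts 104 bases before the gene, and their windows differed at 3 of 250 bases. Hspb1 held 2, which start 117 and 97 bases before the gene. Hspe1 held 3 that overlap, TTCTAGAA, GAACCTTC and TTCCGGAA, and these make 2 overlapping 3-unit elements (3 alternating units at the same spacing), a form found in 0.466% of promoters. The window of the first Hspd1 start held the same elements, because it shares 215 of its 250 bases with that of Hspe1, while the second Hspd1 window held none. Hsph1 held 1, TTCTCGAA. Neither of the 2 Dnajb1 windows held these letters, which says nothing about binding elsewhere or to variant elements. The CCAAT motif stood in the windows of Hspa1a, Hspa1b, Hsph1 and the first Dnajb1 start, against 33.8% of promoters. The CArG box, the site of serum response factor, was found in no member window and in 1.47% of promoters.

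The deposited values are MAS5 signal on a linear scale, and all 20 member probe sets passed the filter on low signal, the lowest at the 42.4th percentile of its array. Trimmed mean signal was 2500.6 to 2500.8 on every array. Med23 read 3577 to 5410 on the WT arrays and 28 to 132.5 on the KO arrays, and the position of its probe set relative to the deletion was not known here. Egr1, an immediate early gene, rose from 6993 and 7545 to 44251 and 44094.5 in WT cells and from 1336 and 1965 to 40512 and 39301 in KO cells. Col1a1, Vim and Fn1 lay above the 99th percentile on every array, while Thy1 lay below the 29th, and 18 of 19 markers of epithelial, endothelial, blood, muscle and pluripotent cells stayed below the 50th percentile throughout. The summed signal of those 19 was 4034 to 5013 on WT arrays and 4163 to 4769.9 on KO arrays. The 12 fibroblast markers summed to 187108 to 210653 on WT arrays and 309573 to 415331 on KO arrays. Pdgfra read 13.3 to 129.2 in WT and 6040 to 15782 in KO cells. The markers did not all go this way: Dcn read 4807 to 8105 in WT and 2365 to 3500 in KO cells, and Fn1 overlapped between genotypes. Col1a2 read 581.4 and 742.9 on the WT arrays of set 1 but 8871 and 9443 on those of set 2. The part of these differences in the chaperone results was not tested. In bulk RNA, fewer cells with a transcript and less of it per cell cannot be told apart.

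**Figure D1:**
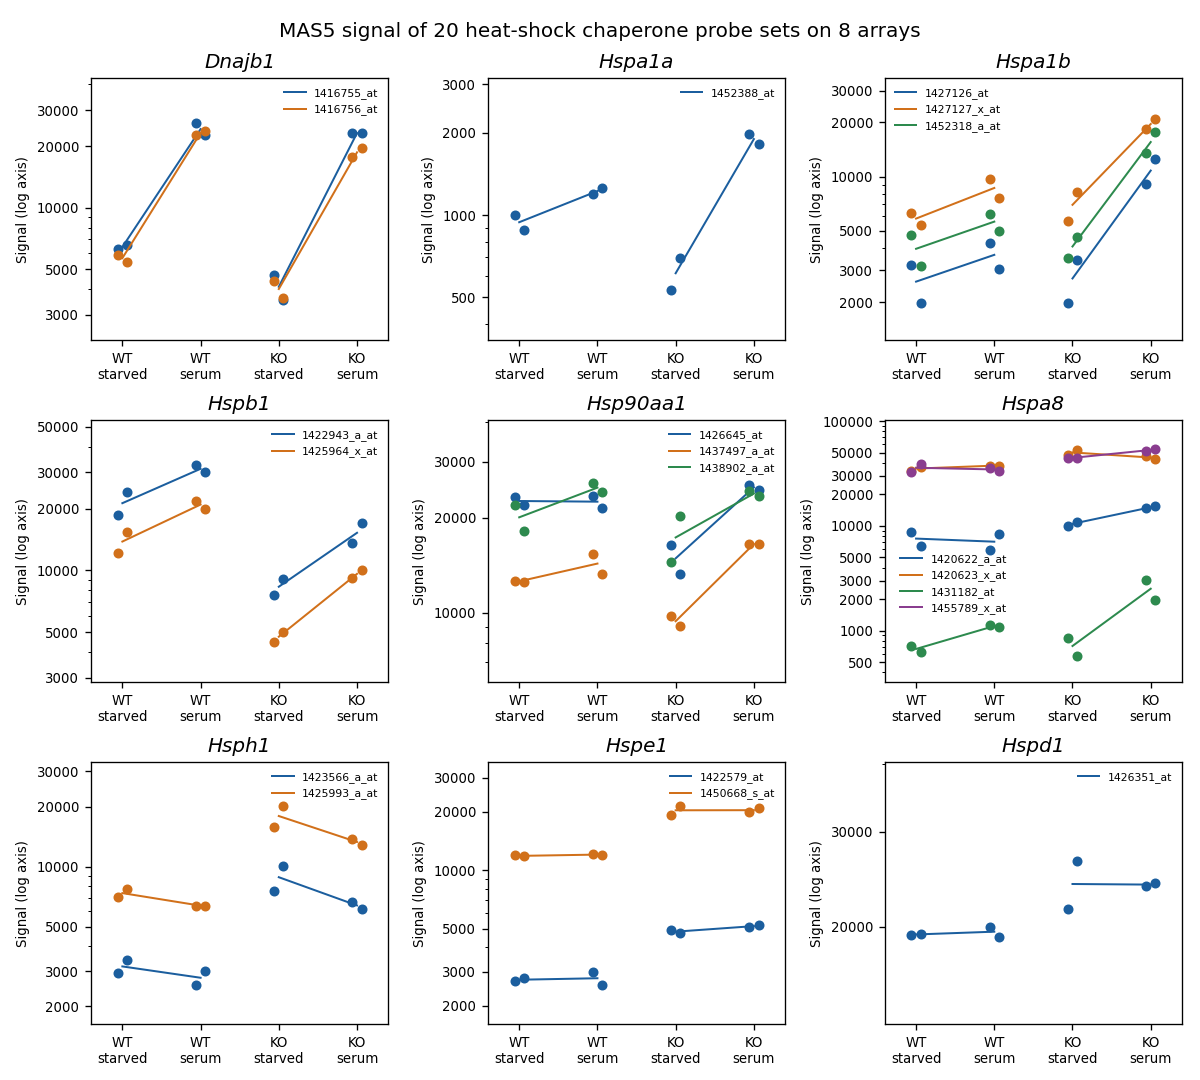
Signal (log axis) of the 20 probe sets in starved and serum-stimulated WT and KO cells; each point is 1 array, each colour 1 probe set, and lines join the means of 2 arrays. Both Dnajb1 probe sets rise steeply in both genotypes, the Hspa1b probe sets rise steeply in KO cells, and Hspe1 and Hspd1 are nearly level with serum but higher in KO cells.

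In WT cells few of the chaperone probe sets passed the test for a change with 30 min of serum. Of the 20 probe sets 3 rose with serum and 0 fell, while 17 missed the threshold. The test was limma on log2(signal + 16) with a call at an adjusted p under 0.05. The rises were both probe sets of Dnajb1 and 1 of Hspb1. Among all 14947 probe sets tested, 2.44% were called higher and 1.70% lower. The share of members called higher (15%) stood above that background, but its 3 calls came from 2 genes. Probe sets of 1 gene are not independent readings. The median log2 change of the members was 0.25, against -0.05 over all probe sets tested. The arrays of the 2 groups did not overlap for 13 members, 12 higher and 1 lower with serum, against 20.5% and 29.8% of all tested. A change of over 2-fold with no overlap, the size the study looked for, was seen for 2 of 20, against 3.03% of all tested. A probe set that did not pass is not thereby shown to be unchanged. With the set number within a genotype as a block, chosen after seeing the data, more members passed, as the last section gives.

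In KO cells most of the member probe sets passed the test with serum. The adjustment was made within each comparison, and the cut-off was stricter in WT cells, where fewer of all probe sets were called. An unadjusted limma p of 0.00416 did not pass in WT cells (Hspb1 1422943_a_at), while 0.0102 passed in KO cells (Hsp90aa1 1438902_a_at). The counts of the 2 genotypes are therefore not a test of their difference, which is given below. Of the 20 probe sets, 12 rose and 1 fell, with 7 not passing, and the rises covered 6 genes: Dnajb1, Hspa1a, Hspa1b, Hspb1, Hsp90aa1 and Hspa8. Hspa8 was counted through 1 of its 4 probe sets, the lowest in signal. The background was 9.33% called higher and 13.8% lower, against 60% and 5% of the members. Groups did not overlap for 15 members that were higher and 3 that were lower, against 21.4% and 41.1% of all tested. The median log2 change was 0.78, against -0.13 over all tested, and 8 of 20 changed by over 2-fold with no overlap, against 6.96%. Centring each array on its median moved the median of all tested from -0.13 to 0.03 and the calls from 1395 higher and 2060 lower to 1955 and 992. On that scale 14 members rose and 0 fell.

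Dnajb1 rose in both genotypes. In WT cells its probe set 1416755_at went from 6269 and 6578 to 25849 and 22564, and in KO cells from 4671 and 3543 to 23242 and 23067. The stimulated arrays lay far above the starved ones in both genotypes, and their ranges in the 2 genotypes overlapped. The log2 change was 1.91 ± 0.137 (SE, adjusted p = 2.18e-05) in WT cells, 3.75-fold, and 2.50 ± 0.137 (adjusted p = 1.43e-06) in KO cells, 5.67-fold. The second probe set, 1416756_at, went from 5897 and 5437 to 22687 and 23721 in WT cells and from 4376 and 3632 to 17769.9 and 19503 in KO cells. Here the stimulated KO arrays lay below the stimulated WT arrays, and the rise was 4.09-fold in WT and 4.65-fold in KO cells (adjusted p = 5.22e-06 and 1.3e-06). The 2 responses differed by 0.60 for the first probe set (95% interval 0.16 to 1.03, adjusted p = 0.144) and by 0.19 for the second (-0.19 to 0.57, adjusted p = 0.598). Neither difference passed the test, although the first did without starved KO array 1 (adjusted p = 0.0345).

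The inducible HSP70 genes rose in KO cells, while in WT cells their 4 probe sets had log2 changes above 0 that did not pass the test. Hspa1a (1452388_at) went from 997.7 and 884.9 to 1190.3 and 1256 in WT cells and from 531.2 and 694.2 to 1971 and 1818 in KO cells. Groups did not overlap in either genotype, and the starved KO arrays were the lowest of the 8 while the stimulated KO arrays were the highest. For Hspa1a the log2 change was 0.37 ± 0.184 in WT cells (95% interval -0.03 to 0.78, adjusted p = 0.323) and 1.61 ± 0.184 in KO cells (adjusted p = 0.000246), or 3.06-fold.

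Hspa1b was read by 3 probe sets. The first, 1427126_at, went from 3226 and 1972 to 4277 and 3051 in WT cells and from 1966 and 3448 to 9092 and 12495.5 in KO cells. The second, 1427127_x_at, went from 6268 and 5398 to 9727 and 7546 in WT cells and from 5668 and 8251 to 18358 and 20846.5 in KO cells. The third, 1452318_a_at, went from 4753 and 3165 to 6218 and 5002 in WT cells and from 3536 and 4621 to 13467 and 17656 in KO cells. The stimulated KO arrays were the highest of the 8 for all 3. In WT cells the array of set 1 was the higher one in both states, so that starved and stimulated arrays overlapped for 1427126_at. The log2 changes were 0.52, 0.56 and 0.52 in WT cells (adjusted p = 0.422, 0.143 and 0.238) and 2.03, 1.51 and 1.93 in KO cells (adjusted p = 0.00136, 0.000413 and 0.000232). Hspa1a and Hspa1b are near-identical copies, so each probe set may also bind transcripts of the other gene, and their values are not independent. Endings with a letter mark probe sets that can match more than 1 transcript.

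The response was larger in KO than in WT cells for Hspa1a and for 1 of the 3 Hspa1b probe sets. The difference of the log2 changes was 1.24 ± 0.260 for Hspa1a (adjusted p = 0.0375) and 1.41 ± 0.308 for Hspa1b probe set 1452318_a_at (adjusted p = 0.0431). For the other 2 Hspa1b probe sets it was 1.51 (95% interval 0.56 to 2.46, adjusted p = 0.0942) and 0.96 (0.37 to 1.54, adjusted p = 0.0872), which did not pass. Hsp90aa1 gave the third called difference. In all, 3 of 20 members had a larger response in KO cells and 0 a smaller one, against 1.61% and 1.08% of all probe sets tested. With median centring the median difference over all tested moved from -0.06 to 0.05, the calls over all probe sets from 241 higher and 161 lower to 353 and 108, and the members called to 5. Leaving out 1 array left 0 to 3 members called. The Hspa1a call was lost without any 1 array other than starved KO array 2 (adjusted p 0.0559 to 0.149), and that of 1452318_a_at without any 1 array other than starved WT array 2 and starved KO array 2 (0.0686 to 0.140) and with quantile normalization (0.0615). With no filter on low signal, or with no mean-variance trend, 0 of 20 members passed. Without starved KO array 2, or with median centring, 1427127_x_at passed (adjusted p = 0.0316 and 0.046).

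Hspb1 rose in KO cells, and 1 of its 2 probe sets passed in WT cells. The values of 1425964_x_at went from 12227 and 15423 to 21902 and 19962 in WT cells and from 4496 and 5024 to 9231 and 10019 in KO cells. Starved and stimulated arrays were apart in both genotypes, and every KO array was below every WT array. On the log2 scale the rise was 0.61 ± 0.132 in WT cells (adjusted p = 0.0306) and 1.01 ± 0.132 in KO cells (adjusted p = 0.0006), or 2.02-fold. The WT call was lost without starved WT array 1 or any 1 stimulated array of either genotype (adjusted p 0.0574 to 0.187), and with no filter (0.0523), no trend (0.092) or only the compared arrays (0.0527). The other probe set, 1422943_a_at, went from 18520.4 and 23992 to 32463.5 and 30034 in WT cells, and the change was 0.57 (95% interval 0.22 to 0.91, adjusted p = 0.0754), which passed with quantile normalization (0.0354). The KO arrays moved from 7618 and 9048 to 13557.5 and 16942, by 0.87 (adjusted p = 0.00344). The responses of the genotypes differed by 0.30 for this probe set (-0.18 to 0.78, adjusted p = 0.497) and by 0.41 for the first (-0.01 to 0.82, adjusted p = 0.27).

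Hsp90aa1 rose in KO cells on all 3 probe sets. With 1426645_at the signal was 23280.3 and 21837 in starved and 23413 and 21487 in stimulated WT cells, and went from 16429 and 13291 to 25301.5 and 24522.5 in KO cells. The starved WT arrays lay between the 2 stimulated WT arrays, and both starved KO arrays were below all others. The log2 change was -0.01 ± 0.116 in WT cells (95% interval -0.27 to 0.25, adjusted p = 0.986) and 0.75 ± 0.116 in KO cells (adjusted p = 0.00163), a difference of 0.76 ± 0.164 (adjusted p = 0.0419). The difference was lost without any 1 array other than starved KO array 1 (adjusted p 0.0665 to 0.163) and with quantile normalization (0.0636). For 1437497_a_at the signal went from 12604 and 12538 to 15319.9 and 13293 in WT cells and from 9741 and 9065 to 16541.5 and 16454.5 in KO cells. Its change was 0.18 in WT (adjusted p = 0.412) and 0.81 in KO cells (adjusted p = 0.000603), and the difference of 0.63 did not pass (0.30 to 0.96, adjusted p = 0.0575), but it passed with median centring (0.0385) and with a filter at the 60th percentile (0.0477). For 1438902_a_at the signal went from 21902 and 18167 to 25671 and 24058 in WT cells and from 14448 and 20159 to 24321 and 23316 in KO cells. Its change was 0.32 in WT (adjusted p = 0.31) and 0.48 in KO cells (adjusted p = 0.046). The KO call was lost without starved KO array 1 or any 1 stimulated array of either genotype (adjusted p 0.0632 to 0.218), and with quantile normalization, no filter, no trend or only the compared arrays (0.0631 to 0.109), and the difference was 0.16 (-0.32 to 0.64, adjusted p = 0.733).

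Hspa8, whose product is the constitutive HSP70 of the cytosol, was read by 4 probe sets that disagreed. The lowest in signal, 1431182_at, went from 712.2 and 625.5 to 1140.3 and 1074 in WT cells and from 852.9 and 574.7 to 3074 and 1955 in KO cells. Stimulated arrays were above starved ones in both genotypes, with the KO pair highest. Its log2 change was 0.72 in WT cells (95% interval 0.16 to 1.27, adjusted p = 0.163) and 1.78 ± 0.251 in KO cells (adjusted p = 0.000965), or 3.44-fold, and the difference of 1.07 did not pass (0.28 to 1.86, adjusted p = 0.149). The other 3 probe sets did not pass in either genotype. Their log2 changes ran from -0.10 to 0.09 in WT cells and from -0.16 to 0.53 in KO cells. Of these, 1420622_a_at had 0.53 in KO cells (0.13 to 0.92, adjusted p = 0.0598) and passed without any 1 WT array (0.0347 to 0.0456), with median centring (0.0184) and with only the compared arrays (0.014). For 1455789_x_at the KO change was 0.25 (0.03 to 0.47, adjusted p = 0.0967), and it passed with quantile normalization (0.00994) and with median centring (0.0283).

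Hsph1 did not rise with serum. Probe set 1425993_a_at read 7017 and 7734 in starved and 6379.2 and 6379.6 in stimulated WT cells, and went from 15844 and 20007 to 13720 and 12863 in KO cells. It was lower in stimulated cells of both genotypes, with no overlap of groups. Its log2 change was -0.21 in WT cells (95% interval -0.49 to 0.07, adjusted p = 0.443), and in KO cells it fell by 0.42 (adjusted p = 0.0376). The KO call was lost without starved KO array 2 or any 1 stimulated array of either genotype (adjusted p 0.0532 to 0.183) and with median centring (0.205). The KO call was also lost with no filter (adjusted p = 0.056), no trend (0.0864) or only the compared arrays (0.0582). The other probe set, 1423566_a_at, changed by -0.19 in WT cells (adjusted p = 0.597) and by -0.45 in KO cells (-0.81 to -0.10, adjusted p = 0.0652). Without starved KO array 1 the latter passed (adjusted p = 0.0216).

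The mitochondrial chaperonin showed no detectable serum response. Hspd1 (1426351_at) read 19295.5 and 19429.5 in starved and 20023 and 19165 in stimulated WT cells, against 21579 and 26429 and then 23771 and 24114 in KO cells. The starved and stimulated arrays overlapped in both genotypes. The log2 change was 0.02 in WT cells (95% interval -0.23 to 0.26) and 0.00 in KO cells (-0.24 to 0.25), with adjusted p = 0.965 and 0.985. For Hspe1 the changes lay between 0.00 and 0.10 on its 2 probe sets. The widest intervals, those of 1422579_at, ran from -0.26 to 0.30 in WT cells and from -0.18 to 0.37 in KO cells.

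**Figure D2:**
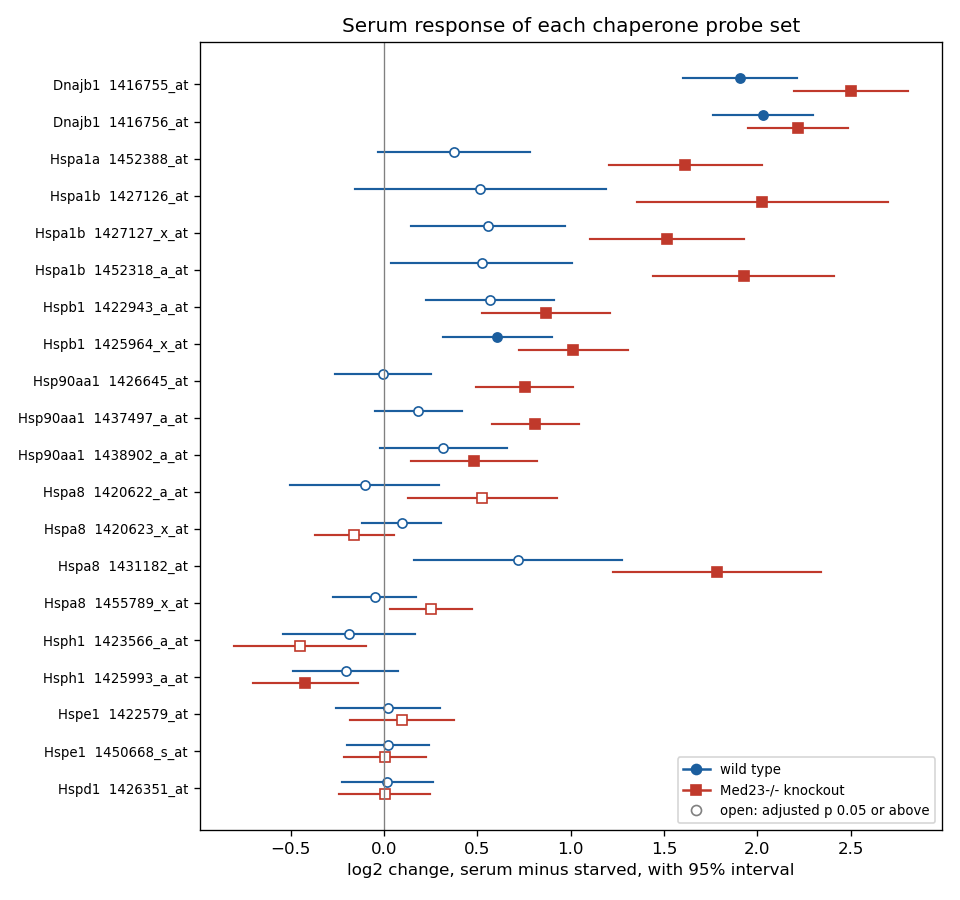
Log2 change with serum (x axis, stimulated minus starved) of each of the 20 probe sets in WT (circles) and KO cells (squares); lines are 95% intervals and filled symbols passed at an adjusted p under 0.05. In WT cells 3 symbols are filled, 2 of them for Dnajb1, while in KO cells 13 are filled, 12 to the right of zero.

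Between genotypes the chaperones went in different directions. In starved cells 8 probe sets were higher in KO (Hsph1, Hspa8, Hspe1 and Hspd1), 7 were lower (Dnajb1, Hspa1a, Hsp90aa1 and Hspb1) and 5 did not pass. The 2 genotypes differed widely over the whole array, with 22.8% of probe sets called higher and 24.8% lower in KO, so the counts of members (40% and 35%) are to be read against a high background. Arrays of the genotypes did not overlap for 8 that were higher and 7 that were lower, against 36.0% and 37.3%. The median difference of the members was 0.06, against -0.01 over all tested, and 4 of 20 differed by over 2-fold with no overlap, against 19.3%. With quantile normalization 5 members were higher and 7 lower, against 22.9% and 24.4% of all tested on that scale. In stimulated cells 13 were higher, 3 lower and 4 not called, against 22.7% and 27.5% of all tested. There was no overlap for 15 that were higher and 3 that were lower, against 35.9% and 42.3%. The median was 0.62, against -0.07, and 9 of 20 differed by over 2-fold with no overlap, against 20.5%. Median centring moved the median over all tested to 0.09 and the calls over all probe sets from 3400 higher and 4106 lower to 4474 and 3075. Both genotype comparisons use the arrays of the serum comparisons above, so their values are given side by side with those.

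Hspb1 had the largest deficit among the members in KO cells. Its signal was lower on every KO array than on every WT array with the same treatment, with the values given above. In starved cells the log2 difference was -1.53 ± 0.132 for 1425964_x_at, 2.88-fold lower in KO (adjusted p = 9.96e-06), and -1.34 ± 0.154 for 1422943_a_at, 2.54-fold lower (adjusted p = 6.94e-05). After serum the differences were -1.12 and -1.04 (adjusted p = 8.29e-05 and 0.000343). Dnajb1 was lower in starved KO cells by -0.66 and -0.50 on its 2 probe sets (adjusted p = 0.00299 and 0.0062), with no overlap. After serum its differences were -0.06 (95% interval -0.37 to 0.24, adjusted p = 0.736) and -0.32 (adjusted p = 0.0492), and the latter call was lost without either starved WT array or any 1 stimulated array (adjusted p 0.0556 to 0.248), and with median centring (0.337), no filter (0.0664) or no trend (0.099).

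Hspa1a and Hsp90aa1 were also lower in starved KO cells. The Hspa1a difference was -0.62 ± 0.184 (adjusted p = 0.0191) in starved and 0.62 ± 0.184 (adjusted p = 0.0172) in stimulated cells, so the order of the genotypes was opposite in the 2 states. The starved call was lost without starved WT array 1 or starved KO array 1 (adjusted p = 0.100 to 0.105), and the stimulated call without any 1 stimulated array (adjusted p 0.0518 to 0.0982). With only the compared arrays the starved Hspa1a call was also lost (adjusted p = 0.0639). Hsp90aa1 was lower in starved KO cells on 1426645_at (-0.61, adjusted p = 0.00173) and 1437497_a_at (-0.42, adjusted p = 0.00821), and did not pass on 1438902_a_at (-0.22, 95% interval -0.56 to 0.11, adjusted p = 0.252). Without starved KO array 2 that probe set passed (adjusted p = 0.0192). After serum its 3 differences lay between -0.06 and 0.21 and did not pass. For Hspa1b the starved differences were 0.05, 0.23 and 0.06 (adjusted p = 0.914, 0.33 and 0.845), with arrays of the genotypes overlapping on all 3. The second passed without starved KO array 1 (adjusted p = 0.0436). After serum Hspa1b was higher in KO cells by 1.56, 1.19 and 1.46 (adjusted p = 0.00182, 0.000491 and 0.000357), or 2.28-fold to 2.94-fold.

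Hsph1 and the mitochondrial chaperonin were higher in KO cells whether starved or stimulated. Hsph1 probe set 1423566_a_at read 2935 and 3402 when WT cells were starved, against 7586 and 10129 in starved KO cells. With serum it read 2571 and 2990.2 against 6636 and 6162. All KO arrays were above all WT arrays. The log2 difference was 1.47 ± 0.159 in starved cells, 2.77-fold (adjusted p = 4.78e-05), and 1.2 after serum (adjusted p = 0.000174). For 1425993_a_at the differences were 1.27 and 1.06 (adjusted p = 2.68e-05 and 9.4e-05).

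Hspe1 probe set 1422579_at read 2677 and 2778 against 4902 and 4752 when starved, and 3002 and 2549.9 against 5109 and 5203 with serum. Its probe set 1450668_s_at read 11953 and 11795 against 19222 and 21595.5, and then 12123 and 11992 against 19998 and 20871. Every KO array was above every WT array on both. The log2 differences were 0.82 and 0.78 in starved cells (adjusted p = 0.00044 and 0.000135) and 0.89 and 0.76 after serum (adjusted p = 0.000248 and 0.000152). For its partner Hspd1 they were 0.30 and 0.29 (adjusted p = 0.0431 and 0.0487), with KO arrays again above all WT arrays. The starved call for Hspd1 was lost without any 1 array other than starved KO array 1 (adjusted p 0.0623 to 0.242), and the stimulated call without either starved WT array or any 1 stimulated array (adjusted p 0.0557 to 0.187). With quantile normalization the Hspd1 values were 0.16 and 0.13 (adjusted p = 0.168 and 0.246). Both Hspd1 calls were also lost with no filter (0.0748 and 0.0828) or no trend (0.107 and 0.116). The starved call was lost with only the compared arrays as well (0.118).

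Hspa8 was higher in KO cells on 3 of its 4 probe sets when starved and on 4 after serum. The bright probe set 1455789_x_at read 33042 and 38831.5 against 44783 and 44505 when starved, and 35916.5 and 33299.8 against 52211 and 54051 with serum. The genotypes did not overlap in either state, and the log2 differences were 0.32 ± 0.0995 (adjusted p = 0.0238) and 0.62 ± 0.0995 (adjusted p = 0.000593). For 1420623_x_at, which read 33821 and 36731 against 47522 and 53112 when starved and 37550.1 and 37735 against 46720.3 and 43218 after serum, they were 0.51 (adjusted p = 0.00152) and 0.26 (adjusted p = 0.0467). These 2 probe sets depended on the scaling: with quantile normalization the starved value of 1455789_x_at was -0.06 and the stimulated value of 1420623_x_at was -0.06, and the starved value of 1420623_x_at was 0.13 (adjusted p = 0.182). For 1420622_a_at, which read 8683 and 6457 against 9954 and 11002 when starved and 5842 and 8301 against 14749 and 15396 after serum, they were 0.48 (adjusted p = 0.0482) and 1.11 (adjusted p = 0.000607). For 1431182_at the differences were 0.07 (95% interval -0.49 to 0.63, adjusted p = 0.846) and 1.14 (adjusted p = 0.00385). The starved call of 1455789_x_at was lost with no filter (adjusted p = 0.0622), no trend (0.0828) or only the compared arrays (0.0904). The stimulated call of 1420623_x_at was lost with no filter (0.108) or no trend (0.131).
Leaving out arrays ended 3 of these calls. In starved cells 1420622_a_at was lost without starved WT array 2, either starved KO array or either stimulated KO array (adjusted p 0.0705 to 0.312), and with no filter or no trend (0.0786 and 0.0995), and 1455789_x_at without starved WT array 1 or either starved KO array (0.0544 to 0.143). After serum 1420623_x_at was lost without any 1 stimulated array (0.0871 to 0.258).

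**Figure D3:**
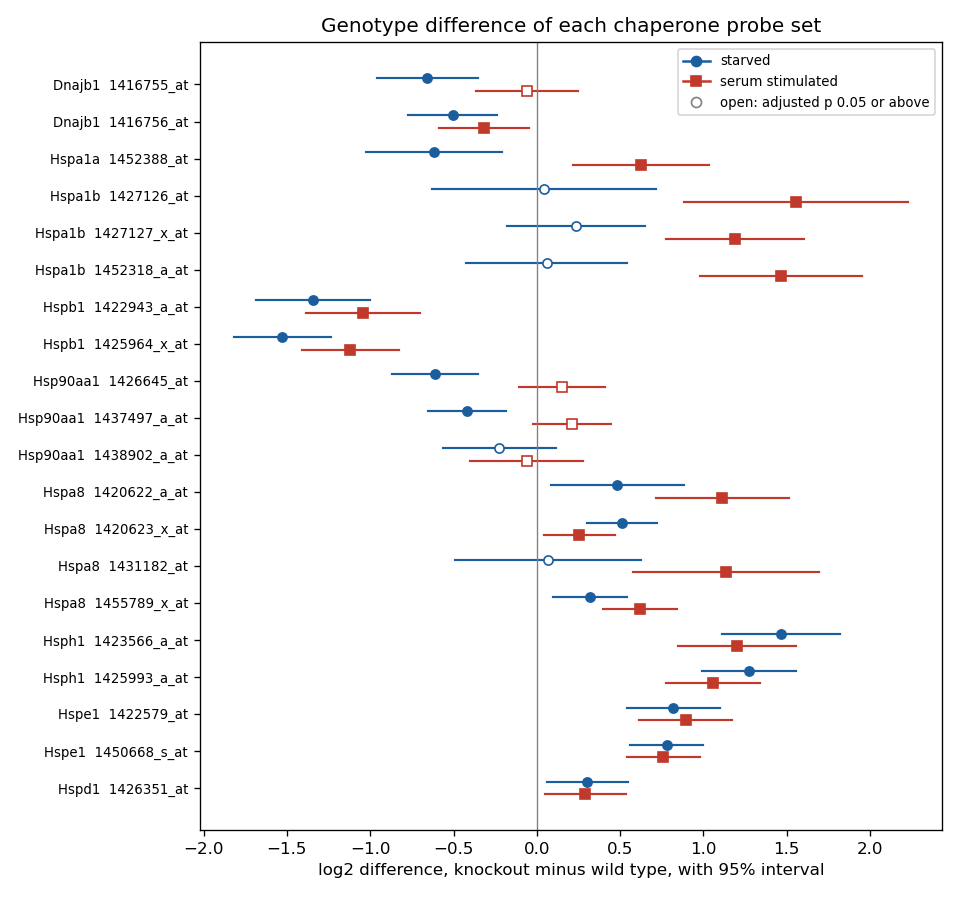
Log2 difference between genotypes (x axis, KO minus WT) of each of the 20 probe sets in starved (circles) and stimulated cells (squares); lines are 95% intervals and filled symbols passed at an adjusted p under 0.05. Hspb1 lies to the left of zero and Hsph1, Hspe1 and Hspd1 to the right in both states, while the Hspa1a value is -0.62 in starved and 0.62 in stimulated cells.

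Chaperone genes outside the 10 were taken from lists by family, each gene read by its brightest probe set. Of 83 listed genes 73 were on the array and 69 were tested. In WT cells 1 rose and 1 fell with serum, against 2.76% and 1.99% of the 8453 genes tested. In KO cells 8 rose (11.6%) and 11 fell (15.9%), against 8.41% and 15.2%, so on the deposited scale the wider chaperone families stood near the background. These counts moved without any 1 KO array, and the calls over all probe sets fell as well. With median centring the list gave 15 (21.7%) and 5 (7.25%), against 13.1% and 6.64% of all probe sets on that scale. With quantile normalization the list gave 11 (15.9%) and 12 (17.4%), against 9.96% and 10.2%. The response was larger in KO cells for 3 of the 69 and smaller for 1, against 1.56% and 1.16% of genes. By family, 3 of 11 J-domain proteins of cytosol and nucleus rose and 0 fell in KO cells, with a median of 0.31 against -0.16 over all genes. In the HSP70 family with its cochaperones 3 of 13 rose and 3 fell, in the HSP90 group 1 of 9 rose and 3 fell, and of 15 chaperones of the endoplasmic reticulum (ER) 1 rose and 0 fell. Among 4 small heat-shock proteins and 8 subunits of TRiC, the cytosolic chaperonin, 0 rose and 1 fell in each, and of 8 mitochondrial chaperones and proteases 0 rose and 3 fell. No HSF gene was tested. Hsbp1, which encodes a protein that binds HSF1, did not pass with serum. Leaving out 1 array gave 0 to 2 falls and 2 to 3 rises in the HSP70 family, where Bag1 (-0.34, adjusted p = 0.0487) was lost without any 1 of the 8 arrays. It gave 0 to 3 falls and 0 to 1 rises in the HSP90 group, 2 to 4 rises among the J-domain proteins, 0 to 1 rises and falls among the ER chaperones, 0 to 1 falls each among small heat-shock proteins and TRiC, and 2 to 3 among the mitochondrial genes.

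**Figure D4:**
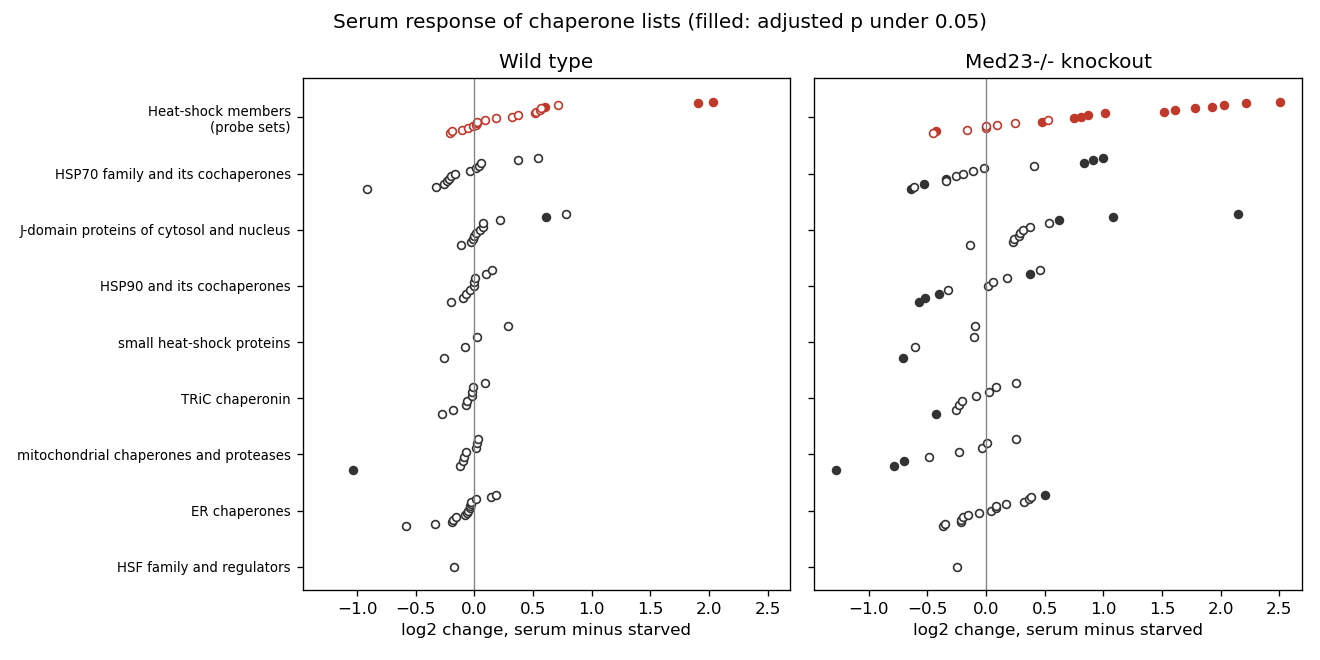
Log2 change with serum (x axis, stimulated minus starved) in WT (left) and KO cells (right) for the 20 member probe sets (red) and for the other chaperone genes by family (black, 1 point a gene); filled points passed at an adjusted p under 0.05. In KO cells 12 of the 20 member probe sets, from 6 of 9 genes, are filled to the right of zero. Of the other genes, each read by 1 probe set, 8 of 69 are, so the 2 counts differ in unit.

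The J-domain genes Dnajb4 and Dnaja1, which encode partners of HSP70, behaved differently in the 2 genotypes. Dnajb4 went from 8933 and 8064 to 13952 and 11996 in WT cells and from 4821 and 6147 to 24209 and 24023 in KO cells. Groups were apart in both genotypes, with starved KO arrays lowest and stimulated KO arrays highest of the 8. The log2 change was 0.61 in WT cells (adjusted p = 0.034) and 2.14 ± 0.136 in KO cells (adjusted p = 4.23e-06), or 4.42-fold, with a difference of 1.54 ± 0.192 (adjusted p = 0.00355). The WT call was lost without any 1 array other than the 2 starved KO arrays (adjusted p 0.0615 to 0.220). Dnaja1 read 18019 and 17477 in starved and 17498 and 17250.2 in stimulated WT cells, and went from 8629 and 7266 to 17054 and 16464 in KO cells. It was low on the 2 starved KO arrays and at a similar level on the other 6. It rose by 1.08 ± 0.108 in KO cells (adjusted p = 0.000107), and the difference of responses was 1.11 ± 0.152 (adjusted p = 0.00501).

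Hspa4, an HSP110 relative of Hsph1, also responded more in KO cells. It read 11678 and 13938 in starved and 12719 and 13528 in stimulated WT cells, and went from 5121 and 5045 to 10408 and 8781 in KO cells. All KO arrays were below all WT arrays, the starved ones furthest. The rise in KO cells was 0.91 ± 0.126 (adjusted p = 0.000889), and the difference of 0.87 ± 0.178 (adjusted p = 0.0344) was lost without any 1 array other than starved WT array 1 and starved KO array 1 (adjusted p 0.0555 to 0.151). Bag3, a cochaperone that links HSP70 to small heat-shock proteins, rose by 0.83 in KO cells (adjusted p = 0.0048), and Bag2, another nucleotide exchange factor, by 0.99 (adjusted p = 0.00554), the latter lost without stimulated KO array 2 (adjusted p = 0.0510). Clpp, a mitochondrial protease subunit, fell by 0.78 in KO cells (adjusted p = 0.00101), with a difference of responses of -0.80 ± 0.157 (adjusted p = 0.0278) that was lost without either starved WT array or any 1 stimulated array (adjusted p 0.0611 to 0.110) and with median centring (0.0568). Dnaja3, a mitochondrial J-domain protein, fell by 1.28 in KO cells (adjusted p = 0.00523) and by 1.03 in WT cells (adjusted p = 0.0453), the latter lost without any 1 WT array (adjusted p 0.0876 to 0.219) and with quantile normalization, median centring, no filter or no trend (0.0615 to 0.0944).

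Between genotypes 12 of the 69 genes were higher and 20 lower in starved KO cells, against 24.3% and 25.2% of all genes, and 13 and 18 in stimulated cells, against 23.1% and 28.5%. With median centring the stimulated counts turned to 18 higher and 12 lower, against 29.9% and 20.6% of all probe sets on that scale. With quantile normalization they did not turn, at 13 higher (18.8%) and 23 lower (33.3%), against 24.2% and 24.5%. The starved counts with quantile normalization were 12 higher (17.4%) and 25 lower (36.2%), against 22.9% and 24.4%. The starved lower count was 13 without starved WT array 1, and the stimulated higher count was 8 without either stimulated KO array. Hspa4l, an HSP110 family member, read 5731 and 7368 in starved WT cells and 218.9 and 274.1 in starved KO cells. The log2 difference was -4.64 (adjusted p = 1.53e-07), and its KO signal lay at percentiles 28.1 to 29.9 of the arrays, below the 40th used for the filter, so its size is uncertain. Hspa12b, a distant HSP70 relative, read 36.8 and 30.8 against 1009 and 1201, and its 22.5-fold difference (adjusted p = 1.13e-05) rests on low WT signal and depends on the constant added before taking logs. Fkbp5, an HSP90 cochaperone induced by glucocorticoids, read 7592 and 8151 against 602.8 and 622.2, or 12.5-fold lower (adjusted p = 1.31e-07). Dnaja1 and Hspa4 were lower in starved KO cells by -1.16 and -1.32 (adjusted p = 1.6e-05 and 1.93e-05).

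The genes whose log2 signal followed that of Hspa1a most closely over the 8 arrays were Sfpq (Pearson r = 0.991), Dnajb4 (0.988), Midn (0.987), Topors (0.986) and Etf1 (0.984). For Dnajb1 they were Ier2 (0.994), Ier5 (0.994), Fosl1 (0.993), Egr2 (0.991) and Hk2 (0.986), several of which are immediate early genes. For Hspa8, by 1420623_x_at, they were Bfar (0.989), Tcf4 (0.988), Tug1 (0.985), Nampt (0.981) and S100a10 (0.980). These are descriptions over 4 groups of 2 arrays that share genotype and serum effects, and they were picked as the closest of all tested genes.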

How the data were processed

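RNA from mouse embryonic fibroblasts was run on 8 arrays, and the deposited values are intensity (signal) per probe set on a linear scale, computed by the authors with MAS5 (version and platform not given in the sources used here; per the submitters' processing notes). MAS5 corrects for mismatch probes, which makes low signals noisy, and the number of arrays limits the precision. Of 22690 probe sets, 64 controls were left out. Probe sets were named through the annotation table given with the series, in which 20380 name 1 gene, 691 several and 1555 none. The 14947 at or above the 40th percentile of their own array on at least 2 arrays were tested. Signals were analysed as log2(signal + 16) in R 4.3.3 by limma 3.58.1, fitting 4 group means with a mean-variance trend. Tests were two-sided, and p-values were adjusted by Benjamini-Hochberg across all tested probe sets. An exact permutation test of 2 arrays against 2 has 0.333 as its smallest p, and the calls therefore depend on pooled spread. The median difference between the 2 arrays of a group was 0.15 on the log2 scale for the members and 0.17 for all tested. Of the pathway lists, up to 3 called genes a list, direction and comparison with the smallest p could be named, and fewer are. The members, lists and tests were chosen with earlier results of these data known. Alternatives tried were pseudocounts of 1 and 64, quantile normalization, median centring, no filter or a 60th percentile filter, no trend, a fit to the compared arrays, the set number as a block, leaving out probe sets with a letter suffix and leaving out each array. Set numbers within a genotype as a block were added after seeing the data. Residuals of same-numbered arrays correlated at 0.21 (WT) and 0.10 (KO) between serum states, and at -0.03 to 0.01 across genotypes. The procedure was tested on simulated data in which 200 of 14947 probe sets were changed. Changes of 1 log2 unit were recovered in 29.7% of cases for the difference of responses and in 52.7% to 58% for the other comparisons. For changes of 2 log2 units these shares were 75.3% and 88.7% to 92.3%. False calls made up 3.30% to 5.46% of the calls. A change of 1 log2 unit can thus be missed, most often in the difference of responses.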

Additional observations from a re-analysis of the deposited data

Results flagged for a closer look

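The difference of the serum response between genotypes (KO minus WT, log2) passed the test for 3 member probe sets and 4 other chaperone genes, each of which is given as a value. Among the members it was 1.24 for Hspa1a, 1.41 for Hspa1b probe set 1452318_a_at and 0.76 for Hsp90aa1 probe set 1426645_at. Among the other genes it was 0.87 for Hspa4, 1.54 for Dnajb4, 1.11 for Dnaja1 and -0.80 for Clpp. Each group held 2 arrays, too few to test for a single array far from the others.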

How the results depend on the processing

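With 2 arrays a group, and 1 left in the group an array was taken from, which is then assumed to vary like the other groups, calls just under the threshold were unsteady. Of 100 values (20 member probe sets in 5 comparisons), 50 were called, of which 35 kept the call and direction under every alternative run, and 15 lost the call under at least 1. In the order serum in WT, serum in KO, difference of responses, genotype when starved and genotype after serum, the main counts were 3, 13, 3, 15 and 16. With the set number as a replicate block they were 4, 13, 2, 14 and 15. Leaving out 1 array gave 2 to 3, 11 to 14, 0 to 3, 12 to 14 and 12 to 16. With the set number within a genotype as a replicate block, chosen after seeing the data, the first 3 counts were 7, 14 and 7. Over all probe sets that block gave 431 higher and 337 lower, 1525 and 2358, and 365 and 259. The main fit gave 365 and 254, 1395 and 2060, and 241 and 161. The values added by this block were serum in WT for Hspa1b 1427127_x_at and 1452318_a_at (adjusted p = 0.0307 and 0.0353), Hspb1 1422943_a_at (0.0342) and Hspa8 1431182_at (0.046), serum in KO for Hsph1 1423566_a_at (0.043), and the difference for Hspa1b 1427126_at and 1427127_x_at (0.00404 and 0.0191), Hsp90aa1 1437497_a_at (0.0496) and Hspa8 1431182_at (0.0452). The set number alone as a replicate block added Hspb1 1422943_a_at in WT (0.0394) and Hsph1 1423566_a_at in KO (0.0448). It ended serum in KO for Hsp90aa1 1438902_a_at (0.0532), the difference for Hspa1b 1452318_a_at (0.0534), Hspa8 1420622_a_at when starved (0.0538) and Dnajb1 1416756_at after serum (0.054). The difference of responses also gave 1 call with quantile normalization, 5 with median centring, and 0 with no filter or no trend. Without letter-suffix probe sets, so with fewer tested, serum in KO and both genotype comparisons gave 6 each. Several values changed sign. Serum in WT: Hspd1 -0.011 (quantile) and Hsp90aa1 1426645_at 0.030 (median centring). Serum in KO, both quantile: Hspd1 -0.039 and Hspe1 1450668_s_at -0.061. Difference of responses: Dnajb1 1416756_at -0.0025 (quantile), Hspd1 0.11 and Hspe1 1450668_s_at 0.10 (both centring). Genotype when starved: Hspa8 1455789_x_at -0.063 (quantile). Genotype after serum: Hspa8 1420623_x_at -0.061 and Hsp90aa1 1426645_at -0.017 (both quantile), Dnajb1 1416755_at 0.10 and Hsp90aa1 1438902_a_at 0.10 (both centring). The cause was not tested. Leaving out 1 array turned the sign of these uncalled values. Serum in WT: Hspa8 1420622_a_at -0.36 to 0.15, Hspa8 1455789_x_at -0.17 to 0.066, Hspe1 1422579_at -0.10 to 0.14, Hspd1 -0.015 to 0.048 and Hsp90aa1 1426645_at -0.069 to 0.054. Serum in KO: Hspd1 -0.14 to 0.15 and Hspe1 1450668_s_at -0.080 to 0.088. Difference of responses: Hspe1 1422579_at -0.043 to 0.19, Hspe1 1450668_s_at -0.10 to 0.066, Hspd1 -0.16 to 0.13 and Hsp90aa1 1438902_a_at -0.077 to 0.40. Genotype when starved: Hspa1b 1427126_at -0.36 to 0.45, 1427127_x_at -0.037 to 0.50 and 1452318_a_at -0.23 to 0.35, Hspa8 1431182_at -0.21 to 0.35 and Hsp90aa1 1438902_a_at -0.46 to 0.015. Genotype after serum: Dnajb1 1416755_at -0.16 to 0.037. A pseudocount of 1 or 64 left all 5 counts as they were.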
